A study of Mus musculus with 2 samples.

Results

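Skint2 and Skint7 are 2 of the 11 Skint genes of the mouse and 2 of the 19046 genes outside the mitochondrial genome that the files hold. They were chosen by name, with earlier results of these data known, to follow their levels over keratinocyte stages, follicle compartments, other skin cells and genotype. Whole dorsal skin of 1 wildtype C57BL/6J mouse and of 1 Eppk1-/- mouse, which lacks the plakin gene Eppk1 in all cells and had been backcrossed into C57BL/6J, was dissociated, fixed and profiled cell by cell. Neither mouse was treated, and their age and sex are not given in the sources used here. Each genotype was thus 1 mouse and 1 library, so that mouse, library and genotype cannot be told apart, no test between genotypes was possible, and all intervals are exact 95% intervals that cover counting error only.

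The wildtype library held 9179 cells and 77638793 UMIs (unique molecular identifiers, each counting 1 captured molecule), and the Eppk1-/- library held 8811 cells and 65118304 UMIs. After the cell filter 8875 and 8617 cells remained, with medians of 4963 and 5006 UMIs. The libraries shared 1211 droplet barcodes. Eppk1 was read at 3680 UMIs per 1000000 (CPM) in wildtype keratinocytes and at 1009 CPM (995 to 1024) in Eppk1-/- keratinocytes. Its probes thus still gave UMIs in the library labelled Eppk1 knockout, unevenly by stage. Keratinocytes here and below are the basal-like, mixed basal and spinous, spinous-like, granular-like, latest-like and proliferating cells, without the follicle and sebaceous groups. In the stages named below, basal-like cells held 1248 and 63.9 CPM, granular-like cells 6617 and 2920 CPM and latest-like cells 101 and 500 CPM. Where those probes lie relative to the deleted part is not given in the sources used here.

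Skint genes encode membrane proteins of the butyrophilin-like kind, with extracellular immunoglobulin-like domains, that are expressed in mouse epidermis and thymus. Skint1, the founding member, is required in the thymus for the development of the gamma delta T cells that later populate the epidermis as dendritic epidermal T cells. The epidermis renews from basal cells on the basement membrane, which move up as spinous and then granular cells while they exchange the keratins Krt5 and Krt14 for Krt1 and Krt10 and later make filaggrin (Flg) and loricrin (Lor). The hair follicle opens to the surface through the infundibulum, whose inner cells express Krt79, and continues downward through the isthmus to the bulge, the niche of follicle stem cells.

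In the GENCODE M21 annotation of GRCm38 (mm10) the 11 Skint genes lay within 2.33 Mb of chromosome 4. Skint7 (ENSMUSG00000049214) covered chr4:111972923-111988223 on the forward strand, and Skint2 (ENSMUSG00000034359) covered chr4:112557194-112652248 on the same strand, 569 kb further on. Skint1, Skint3, Skint4 and Skint9 lie between them. The longest coding sequences were 1185 bases for Skint7 and 1200 bases for Skint2, in transcripts of 7 and 8 exons, and were 57.5% identical to each other, with no shared run above 14 bases.

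Each member had a closer relative elsewhere in the cluster, which matters for a readout by hybridised probes. The coding sequence of Skint7 was 90.2% identical to that of Skint8, and 237 bases in exon 3 of Skint7, at chr4:111980120-111980356, were the same in both. The coding sequence of Skint2 was 72.8% identical to that of Skint3, and 68 bases in exon 3 of Skint2, at chr4:112624146-112624213, were the same in both. These shared runs, given 5′ to 3′ in the sense of the gene from the GENCODE transcripts, are shown because a probe placed inside them could not tell the pair apart.
Skint2 and Skint3: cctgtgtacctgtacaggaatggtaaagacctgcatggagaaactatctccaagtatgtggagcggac
Skint7 and Skint8: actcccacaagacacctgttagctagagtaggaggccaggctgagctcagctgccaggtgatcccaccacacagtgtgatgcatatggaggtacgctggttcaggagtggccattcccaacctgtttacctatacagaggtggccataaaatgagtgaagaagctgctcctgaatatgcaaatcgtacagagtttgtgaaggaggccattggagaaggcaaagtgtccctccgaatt
Where the probes of these genes bind is not given in the sources used here, so every Skint value is uncertain to that extent, and levels of different Skint genes are compared below only by their pattern over cells and never by size.

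The 250 bases before the RefSeq start site of each member (GRCm38.p6, forward strand) are shown because the levels of the genes differed between cell groups. They lie at chr4:112613490-112613739 for Skint2 and chr4:111972677-111972926 for Skint7, in lower case, with any TATAAA in capitals, which here reads TTTATA because it matched on the reverse strand.
Skint2: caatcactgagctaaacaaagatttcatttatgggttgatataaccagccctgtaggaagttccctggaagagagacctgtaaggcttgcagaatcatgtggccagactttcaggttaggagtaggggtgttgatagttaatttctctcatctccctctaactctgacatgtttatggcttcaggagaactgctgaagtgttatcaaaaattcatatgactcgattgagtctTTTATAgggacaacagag
Skint7: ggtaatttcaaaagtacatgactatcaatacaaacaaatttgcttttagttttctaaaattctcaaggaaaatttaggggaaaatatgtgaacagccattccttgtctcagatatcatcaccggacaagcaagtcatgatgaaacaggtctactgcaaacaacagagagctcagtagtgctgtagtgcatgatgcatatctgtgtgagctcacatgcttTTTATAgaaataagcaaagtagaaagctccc
The match began 18 bases before the start site in Skint2 and 31 bases before it in Skint7. On either strand TATAAA was found in 12.4% of 32851 RefSeq promoters of this length, and the AP-1 letters TGANTCA, found in 6.75% of them, were in neither window. The promoters of Skint2 and Skint7 were 49.6% identical and shared no run above 9 bases, whereas Skint7 and Skint8 shared a run of 51 bases that contains the TATAAA match. The RefSeq start site of Skint2 lies 56.5 kb inside the GENCODE gene, and 1 of its 3 coding transcripts starts within 100 bases of it.

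Measured as CPM over the 11 named epithelial groups, Skint2 was highest in the infundibulum-like cells of the upper follicle and next highest in granular-like cells. It was close to absent from the basal layer. In the infundibulum-like cells it was read at 91.0 CPM (81.3 to 102) in the wildtype, from 319 UMIs in 503 cells, and at 79.0 CPM (67.8 to 91.4) in the Eppk1-/- library, from 178 UMIs in 349 cells. In the granular-like cells it was read at 29.7 CPM (26.5 to 33.2) and 37.8 CPM (32.9 to 43.2), from 307 and 213 UMIs. The infundibulum-like level was 3.07 times the granular-like level in the wildtype and 2.09 times in the Eppk1-/- library.

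Along the interfollicular epidermis Skint2 was found late. In basal-like cells, 1 UMI was found among 1537 wildtype cells and 1 among 1219 Eppk1-/- cells, which gave 0.14 and 0.19 CPM. Spinous-like cells held 16 and 17 UMIs, or 2.80 CPM (1.60 to 4.55) and 3.13 CPM (1.82 to 5.01). The log2 ratio of spinous-like over basal-like cells was 4.29 for the wildtype and 4.01 for Eppk1-/- cells, with intervals of 1.61 to 9.68 and 1.34 to 9.40 over a single basal UMI. Granular-like cells were 10.6 times above spinous-like cells in the wildtype and 12.1 times in the Eppk1-/- library, log2 ratios of 3.41 (2.68 to 4.23) and 3.59 (2.88 to 4.40). Of all genes with at least 50 UMIs, 16.1% and 15.4% were higher in granular-like than in spinous-like cells by a log2 ratio of 1 or more. In the latest-like cells, which are rich in the late cornified envelope transcripts of the Lce genes, Skint2 was at 2.18 and 1.62 CPM, from 2 and 1 UMIs, while over all tested genes the log2 ratio of latest-like to granular-like cells had medians of -2.73 and -2.90.

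Below the infundibulum Skint2 was lower. Isthmus-like cells held 9.28 CPM (6.53 to 12.8) and 13.0 CPM (8.96 to 18.3), and bulge-like cells held 3.10 CPM (1.34 to 6.10) and 8.70 CPM (4.496 to 15.2). By sub-cluster these groups were uneven, the isthmus-like cells only in the Eppk1-/- library. Of the bulge-like cells, the sub-cluster of 436 wildtype and 217 Eppk1-/- cells held no Skint2 UMI, and all 8 and 12 came from the sub-cluster led by Fgf18, at 9.52 CPM (4.11 to 18.8) and 23.6 CPM (12.2 to 41.2). Of the isthmus-like cells, the sub-cluster led by Pthlh held 10.7 CPM (5.86 to 17.98) and 33.7 CPM (21.4 to 50.6), and that led by Ccl2 held 8.58 CPM (5.44 to 12.9) and 5.39 CPM (2.59 to 9.92). The intervals of these sub-clusters overlapped in the wildtype, and the Eppk1-/- values rest on 23 and 10 UMIs. Sebaceous-like cells held 0 and 1 UMIs, and companion-like cells held 1 and 0. In order of level, infundibulum-like, granular-like and isthmus-like cells were separated by intervals that did not overlap in either library, whereas isthmus-like, proliferating and bulge-like cells had overlapping intervals in the Eppk1-/- library.

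**Figure D1:**
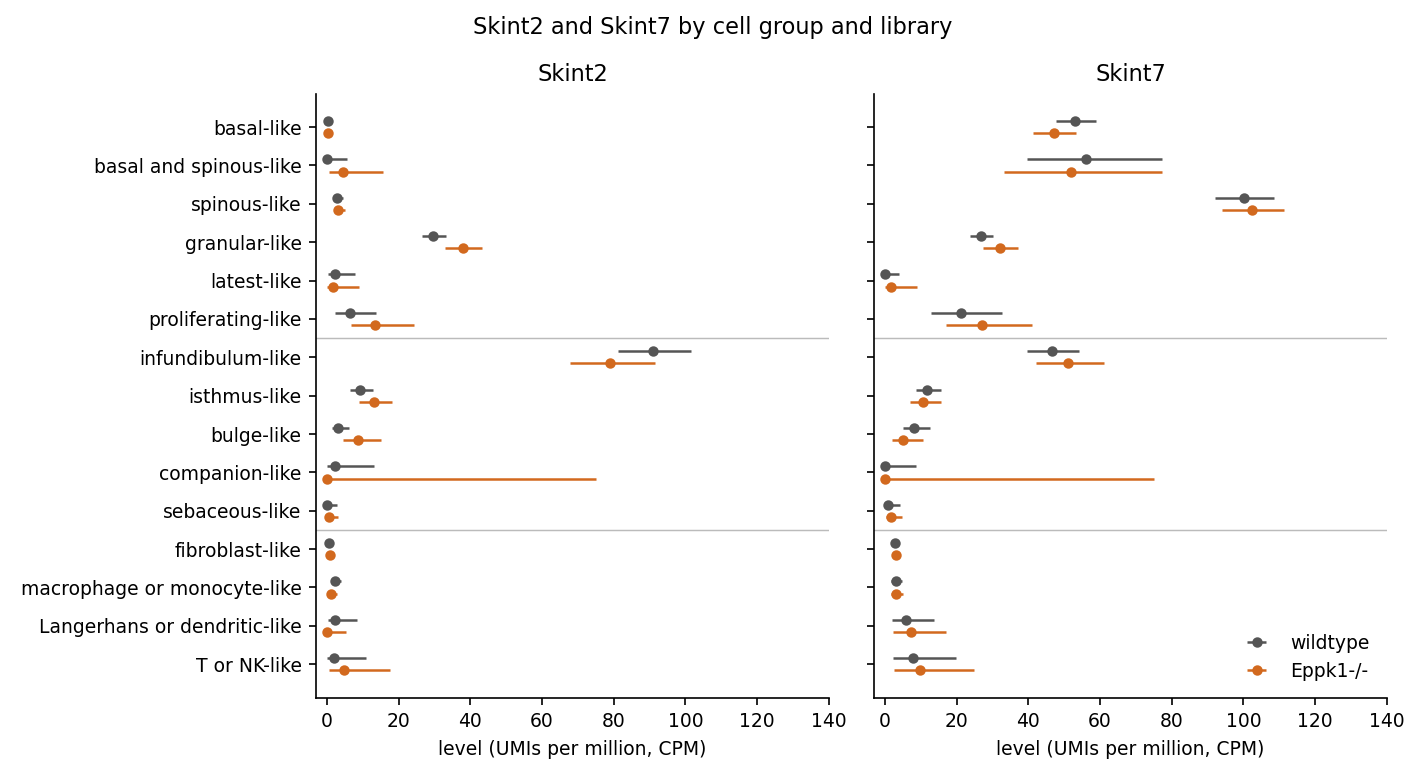
Level of Skint2 (left) and Skint7 (right) in CPM on a linear axis, for 15 of the cell groups (rows) in the wildtype (grey) and Eppk1-/- (orange) library; points are the sum over cells of 1 library and bars the exact Poisson interval. Skint2 peaks in the infundibulum-like cells at 91.0 and 79.0 CPM and Skint7 in the spinous-like cells at 100.1 and 102 CPM; the 4 plotted groups outside the epithelium reach at most 4.83 CPM of Skint2 and 9.66 CPM of Skint7, and the long bars of the companion-like cells reflect 12 Eppk1-/- cells.

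Skint7 showed another order. Measured as CPM, it was already present in the basal layer, was highest in the spinous-like cells and was lower again in the deeper granular-like cells. Basal-like cells held 53.1 CPM (47.8 to 58.8) in the wildtype and 47.1 CPM (41.3 to 53.4) in the Eppk1-/- library, from 372 and 243 UMIs. Spinous-like cells held 100.1 CPM (92.1 to 109) and 102 CPM (94.0 to 111), from 572 and 556 UMIs, and granular-like cells held 26.7 CPM (23.6 to 30.04) and 31.95 CPM (27.5 to 37.0). The log2 ratio of spinous-like over basal-like cells was 0.92 (0.72 to 1.11) in the wildtype and 1.12 (0.90 to 1.34) in the Eppk1-/- library. Of all genes, 5.57% and 5.97% were higher by a log2 ratio of 1 or more, which Skint7 reached only in the Eppk1-/- library. The log2 ratio of granular-like over spinous-like cells was -1.91 (-2.12 to -1.70) and -1.68 (-1.93 to -1.43), with 17.4% and 19.4% of all genes lower by 1 or more. Skint7 was among the 10 leading genes of the spinous-like cluster, although no Skint gene was used to form the clusters, and these levels are therefore given as a description.

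The infundibulum-like cells ranked near the basal layer for Skint7, with 46.5 CPM (39.6 to 54.2) and 51.0 CPM (42.1 to 61.2). The intervals of the infundibulum-like, basal-like and mixed basal and spinous cells overlapped in both libraries. Isthmus-like cells held 11.8 and 10.6 CPM and bulge-like cells 8.13 (5.03 to 12.4) and 5.08 CPM (2.04 to 10.5), so that both follicle groups carried less of this gene than the basal-like cells of the epidermis. The bulge-like intervals overlapped those of cells with T or NK markers, at 7.78 and 9.66 CPM from 4 UMIs each. They were apart from that of fibroblast-like cells in the wildtype (1.88 to 3.65) but not in the Eppk1-/- library (2.21 to 3.83). The isthmus-like over basal-like log2 ratios were -2.17 (-2.64 to -1.73) and -2.14 (-2.78 to -1.57). Latest-like cells held 0 and 1 UMIs, and sebaceous-like cells 1 and 3.

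Seen from the transcripts, Skint2 was split between follicle and epidermis, while Skint7 was mostly epidermal. Of 757 Skint2 UMIs in the wildtype, 42.1% came from infundibulum-like cells and 40.6% from granular-like cells, and of 505 in the Eppk1-/- library 35.2% and 42.2%. Of 1585 Skint7 UMIs in the wildtype, 36.1% came from spinous-like cells, 23.5% from basal-like cells and 10.3% from infundibulum-like cells, and of 1286 in the Eppk1-/- library 43.2%, 18.9% and 8.94%. These shares also depend on how many cells of a group were captured and how deep they were.

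The share of cells with a UMI followed depth as well as level. In granular-like cells, whose medians were 21937.5 and 20126.5 UMIs, Skint2 was found in 34.9% (30.6 to 39.5) and 40.0% (34.1 to 46.1) of cells, against 32.4% and 30.7% of infundibulum-like cells with medians of 5162 and 5475 UMIs. With each cell thinned to 2000 UMIs and shallower cells left out, the shares were 6.59% and 8.58% of granular-like cells against 15.4% (12.3 to 19.0) and 13.1% (9.60 to 17.3) of infundibulum-like cells, the same order as the CPM. In Skint2 UMIs per cell the order was the other way in both libraries. The 458 and 270 granular-like cells held 307 and 213, and the 503 and 349 infundibulum-like cells 319 and 178. Skint7 was found in 39.0% and 41.98% of spinous-like cells and, after thinning, in 17.3% and 17.9% of them, against 8.63% and 8.05% of basal-like cells. Of granular-like cells 34.1% (29.7 to 38.6) and 37.0% (31.3 to 43.1) had a Skint7 UMI, and 4.84% and 7.46% after thinning. The 458 and 270 granular-like cells held 276 and 180 Skint7 UMIs, and the 887 and 848 spinous-like cells 572 and 556. Its granular-like fall was thus relative to all UMIs. In UMIs per cell Skint7 was slightly lower in granular-like than in spinous-like cells in the wildtype and slightly higher in the Eppk1-/- library. Most positive cells held few molecules. In the wildtype the highest counts in a cell were 9 UMIs for Skint2 and 7 for Skint7 among keratinocytes, and 7 and 9 among infundibulum-like cells.

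To follow both genes without cluster borders, the interfollicular keratinocytes of both libraries were ordered by their UMIs of Krt1 and Krt10 over those of Krt5 and Krt14 and cut into 10 bins of equal size. In bins 1 to 5 Skint2 had 2 wildtype UMIs and 1 Eppk1-/- UMI. It was at 5.33 and 2.04 CPM in bin 7, 19.4 and 15.4 CPM in bin 8 and 29.6 (25.5 to 34.2) and 32.4 CPM (27.5 to 37.9) in bin 10. Skint7 was flatter, between 38.5 and 66.3 CPM over the first 9 bins of the wildtype and between 39.1 and 83.7 CPM in the Eppk1-/- library, and stood at 35.3 (30.8 to 40.2) and 49.1 CPM (43.1 to 55.8) in bin 10. In bins 9 and 10 the intervals of Skint7 did not overlap between the libraries, and its level was higher in the Eppk1-/- library in both. In bin 9 it was at 61.1 CPM (52.8 to 70.3) in the wildtype and 83.7 CPM (71.6 to 97.4) in the Eppk1-/- library. Bin 10 held 282 wildtype cells with 6348698 UMIs and 284 Eppk1-/- cells with 4844307 UMIs. The part of cell make-up in these differences was not tested, and how many other genes were apart in these bins was not counted. The spinous peak of Skint7 was weaker on this axis. Its bins do not follow the clusters, and Lor, a gene of granular and later cells, was highest in bin 7, with 54509 and 51851 CPM, against 3776 and 3091 CPM in bin 10.

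**Figure D2:**
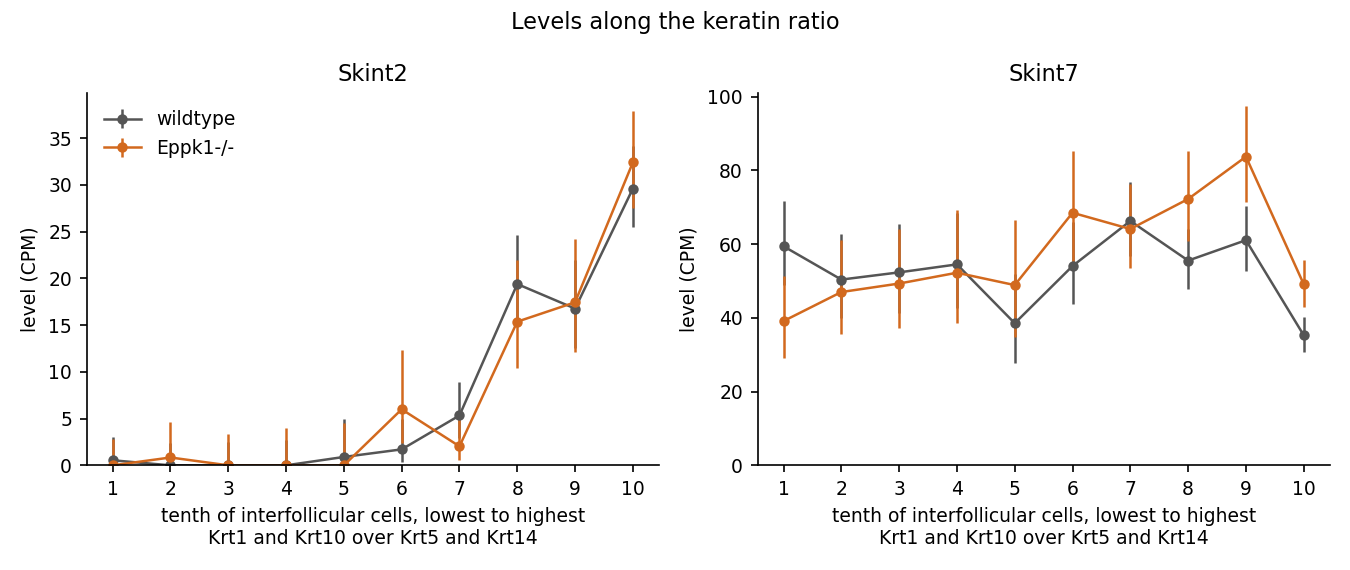
Level of Skint2 (left) and Skint7 (right) in CPM over 10 bins of interfollicular keratinocytes ordered by Krt1 and Krt10 over Krt5 and Krt14, in the wildtype (grey) and Eppk1-/- (orange) library; bars are exact Poisson intervals. Skint2 is near 0 up to bin 5 and reaches 29.6 and 32.4 CPM in bin 10, while Skint7 is present in every bin and is at 35.3 and 49.1 CPM in bin 10.

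Within the infundibulum-like, granular-like and isthmus-like clusters, Skint2 followed Krt79, the keratin of the cells that line the upper follicle canal, while Skint7 had no common direction. This split was chosen after values were seen. Of the infundibulum-like cells, 392 wildtype and 258 Eppk1-/- cells had at least 10 Krt79 UMIs per 10000, and in these Skint2 was read at 115 CPM (102 to 129) and 105 CPM (90.0 to 122). The 85 and 73 cells with no Krt79 UMI, with medians of 6662 and 6227 UMIs against 4931 and 5209 in the cells rich in Krt79, held 10 and 0 Skint2 UMIs, or 14.7 CPM (7.05 to 27.03) and at most 7.44 CPM. In the same cells Skint7 was read at 66.1 CPM (48.2 to 88.5) and 68.5 CPM (47.5 to 95.8), against 41.3 CPM (34.0 to 49.8) and 45.9 CPM (36.1 to 57.4) in the cells rich in Krt79.

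Skint2 was also higher with Krt79 in granular-like and isthmus-like cells. Of the granular-like cells, 32 in each library were rich in Krt79 and held 83.7 CPM (60.6 to 113) and 80.7 CPM (57.9 to 109) of Skint2, near the level of the infundibulum, with 13.6 CPM (5.48 to 28.1) and 7.87 CPM (2.14 to 20.2) of Skint7. Granular-like cells with no Krt79 UMI still held 26.0 CPM (22.8 to 29.6) and 33.4 CPM (28.4 to 39.0) of Skint2, from 234 and 160 UMIs, so that Skint2 in granular-like cells was not confined to those with Krt79. Of the isthmus-like cells, the 97 and 66 rich in Krt79 held 37.3 CPM (22.5 to 58.3) and 68.1 CPM (42.2 to 104) of Skint2, against 2.13 CPM (0.78 to 4.63) and 2.73 CPM (0.89 to 6.37) in those without. Skint7 was read in the same isthmus-like cells at 9.82 CPM (3.19 to 22.9) and 25.9 CPM (11.2 to 51.1) with high Krt79, and at 10.99 CPM (7.47 to 15.6) and 8.74 CPM (4.995 to 14.2) without. It was thus higher with Krt79 there in the Eppk1-/- library, from 8 UMIs and with overlapping intervals. Krt79 was rare in spinous-like and basal-like cells, and the values there rest on few UMIs. The 15 wildtype spinous-like cells with some Krt79, but not rich in it, held 4 Skint2 UMIs, or 35.5 CPM (9.67 to 90.8). The 871 wildtype spinous-like cells with no Krt79 UMI held 12, or 2.14 CPM (1.11 to 3.74), and these intervals did not overlap. The 17 Skint2 UMIs of the Eppk1-/- spinous-like cells were all in cells with no Krt79 UMI. The 7 other cells there held 0, which allows at most 90.4 CPM.

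**Figure D3:**
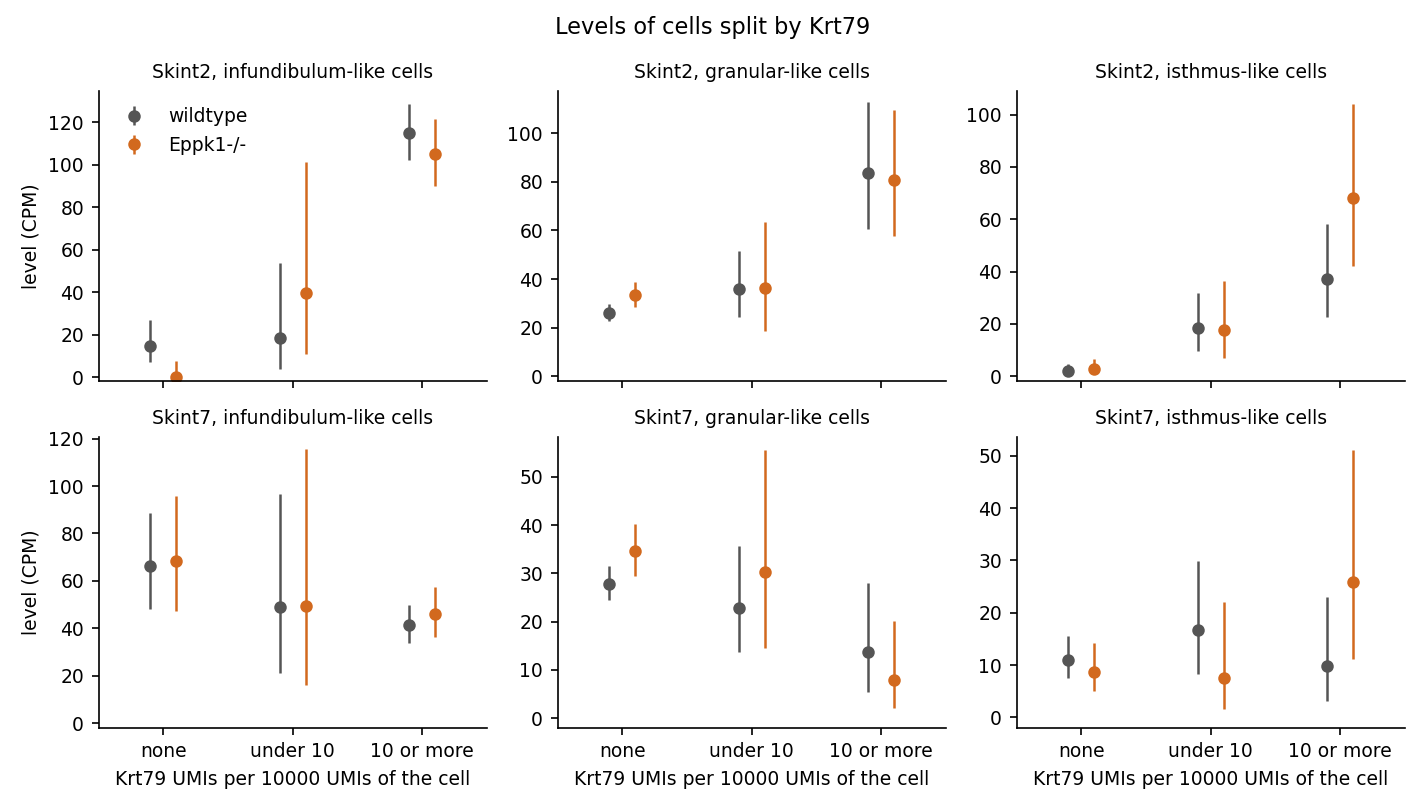
Level of Skint2 (top row) and Skint7 (bottom row) in CPM in infundibulum-like, granular-like and isthmus-like cells, split by the Krt79 UMIs of the cell per 10000 of its UMIs, in the wildtype (grey) and Eppk1-/- (orange) library; bars are exact Poisson intervals and the vertical scale differs between panels. Skint2 is highest in the Krt79-rich cells of each cluster (115 and 105, 83.7 and 80.7, 37.3 and 68.1 CPM). Within granular-like cells Skint7 is lowest in the Krt79-rich ones (13.6 and 7.87 CPM). In the wildtype that interval overlaps the one of granular-like cells without Krt79. Within isthmus-like cells of the Eppk1-/- library Skint7 is higher in the Krt79-rich ones (25.9 CPM).

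The infundibulum-like cluster was named from Krt79, Krt17, Cst6 and its other markers. Krt79 was read at 5164 and 5263 CPM there, against 379 and 567 CPM in granular-like and 481 and 436 CPM in isthmus-like cells. Its list of leading genes also held the hair genes Tchh, Krtap8-1 and Krtap17-1. Tchh, which encodes trichohyalin of the inner root sheath, had 11.1 CPM there in the wildtype, against 1097 CPM for Eppk1-/-, and 2 Eppk1-/- cells held 2448 of its 2474 UMIs there. Those cells had no UMI of Skint2 or Skint7, and without them the Eppk1-/- values were 79.5 and 51.4 CPM.

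Outside the epithelium both genes were low in every large cell group. Fibroblast-like cells, with medians of 6981.5 and 6270 UMIs, held 0.56 and 0.92 CPM of Skint2 and 2.66 and 2.94 CPM of Skint7, and 0.33% and 0.46% of them had a Skint2 UMI and 1.41% and 1.501% a Skint7 UMI. All non-epithelial cells together held 39 and 27 Skint2 UMIs, or 1.73 CPM (1.23 to 2.37) and 1.05 CPM (0.69 to 1.52), and 65 and 92 Skint7 UMIs, or 2.89 CPM (2.23 to 3.68) and 3.56 CPM (2.87 to 4.37). Single cells made up some of the higher values. The 47 wildtype cells that mixed keratinocyte with fibroblast markers, which were left out of the order above, held 41.5 CPM (25.7 to 63.5) of Skint2, and 10 of these 21 UMIs came from 1 cell with 216 Krt79 UMIs. Of 15 Skint2 UMIs in the unnamed cluster of the wildtype, which is led by immunoglobulin genes, 12 came from 1 cell that also held 124 Krt79 UMIs. The 61 endothelial-like cells of the Eppk1-/- library held 29.8 CPM (12.0 to 61.3) of Skint7 from 7 UMIs, and 5 of these came from 1 cell with 78 Krt10 UMIs. Of the Skint2 UMIs in proliferating cells, 5 of 6 in the wildtype and 10 of 11 in the Eppk1-/- library came from 1 and 2 cells, so that the 6.33 and 13.5 CPM there do not describe the cycling cells at large.

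Between the genotypes neither gene passed the size rule, a log2 ratio of 0.5 in either direction among genes with at least 50 UMIs. Skint2 was read in keratinocytes, without the follicle groups, at 13.0 CPM (11.6 to 14.4) in the wildtype and 13.5 CPM (11.9 to 15.3) in the Eppk1-/- library. Its log2 ratio of Eppk1-/- over wildtype was 0.06 (-0.18 to 0.30). Skint7 was read at 49.9 CPM (47.2 to 52.7) and 56.6 CPM (53.2 to 60.2), a log2 ratio of 0.18 (0.06 to 0.30). Of 10792 genes in the same cells 3.62% were higher and 3.56% lower by the rule, and their median log2 ratio was 0.01. With sub-clusters weighted by their wildtype shares the ratios became 0.36 for Skint2 and 0.03 for Skint7, and the part that the make-up of the captured cells has in them was not tested. The follicle and sebaceous groups, left out of these cells, held 48.2% and 44.4% of all Skint2 UMIs. Counted together with the keratinocytes, they gave a Skint2 log2 ratio of -0.054.

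By group, the Poisson intervals of the libraries overlapped in 11 of 11 epithelial groups for each gene. Only 3 of these groups for Skint2 and 6 for Skint7 held at least 50 UMIs, so that in the others the overlap says little. How often such overlap holds over all genes was not counted. Overlap is also not agreement, since the Skint2 log2 ratios of granular-like and bulge-like cells below had intervals above 0. Some sub-clusters within the groups differed more. Skint7 in the basal-like sub-cluster of 597 and 454 cells was read at 67.5 CPM (58.2 to 77.8) in the wildtype and 46.6 CPM (37.8 to 56.7) in the Eppk1-/- library, while the larger basal-like sub-cluster of 869 and 739 cells held 42.5 CPM (36.1 to 49.6) and 48.3 CPM (40.6 to 57.0). The first of these differences, from 190 and 99 UMIs, is past the size rule. How many of all genes passed the rule in that sub-cluster was not counted. The CPM intervals of Skint2 in the Pthlh-led isthmus-like cells were also apart, with the higher level in the Eppk1-/- library. This rests on 14 and 23 UMIs in 7 and 10 cells, with up to 4 and 6 in 1 cell. The shares of these cells with a Skint2 UMI, 2.17% (0.88 to 4.41) and 5.88% (2.86 to 10.6), had overlapping intervals. For Skint2, the log2 ratios of Eppk1-/- over wildtype in the 3 groups with at least 50 UMIs were -0.21 (-0.48 to 0.06) in infundibulum-like, 0.35 (0.09 to 0.61) in granular-like and 0.49 (-0.24 to 1.204) in isthmus-like cells. In bulge-like cells, from 20 UMIs in all, it was 1.49 (0.08 to 2.99). For Skint7, those in the 6 groups with at least 50 UMIs were -0.17 (-0.41 to 0.06) in basal-like, 0.03 (-0.14 to 0.20) in spinous-like, 0.26 (-0.02 to 0.54) in granular-like, 0.13 (-0.22 to 0.49) in infundibulum-like, -0.11 (-0.91 to 0.67) in mixed basal and spinous and -0.15 (-0.89 to 0.57) in isthmus-like cells. The granular-like cells of the libraries also differed in Flg, with 5306 CPM for the wildtype and 14143 CPM for Eppk1-/-, and its part in the Skint2 value was not tested. The difference between the infundibulum-like and granular-like ratios was likewise not tested.

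In single keratinocytes the genes were found together about as often as their separate shares within a stage would give. Over all keratinocytes, 63 wildtype cells had a UMI of both genes, 116 of Skint2 only, 762 of Skint7 only and 2338 of neither, and in the Eppk1-/- library the numbers were 49, 80, 624 and 1891. Independence over all keratinocytes would give 45.0 and 32.8 cells with both, whereas independence within each stage would give 60.3 and 46.6. Among granular-like cells, where most of the shared cells lay, 57 and 40 had both, against 54.5 and 40 for independence, and Skint7 was found in 35.6% and 37.0% of the cells with Skint2 and in 33.2% and 37.0% of the others.

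Among infundibulum-like cells more had both genes than independence would give, 43 and 30 against 33.1 and 22.7. After thinning to 2000 UMIs 6 and 8 had both, against 5.87 and 3.66. Of the isthmus-like cells 3 and 2 had both without thinning, against 0.97 and 0.75. Only 6 and 7 spinous-like cells had both, since Skint2 was rare there. The pooled log2 odds ratio of shared detection depended on depth. It was -1.36 and -1.25 in thinned keratinocytes, where 1 cell in each library had both genes, and 0.74 and 0.90 without thinning, so that no sign can be read from it.

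Over 24 cell groups with at least 30 cells in both libraries, Pearson's r of log2(CPM + 1) between Skint2 and Skint7 was 0.24 (wildtype) and 0.28 (Eppk1-/-), as a description of groups that share a library. It depended on the cells taken, at 0.52 and 0.44 with doublets left out and -0.18 and 0.018 over keratinocyte sub-clusters only. Among 12282 genes with at least 200 UMIs, the 10 most like Skint2 in the wildtype were Blnk (r 0.84), Cst6 (0.81), Atp6v1c2 (0.81), Skint3 (0.80), Alox12e (0.78), Defb6 (0.77), Slc5a1 (0.76), Skint8 (0.75), Slc5a9 (0.73) and Nebl (0.73). Their r in the Eppk1-/- library lay between 0.65 (Blnk) and 0.80 (Atp6v1c2). Cst6 encodes cystatin M/E, a protease inhibitor of the upper follicle and upper epidermis, Defb6 a beta-defensin, Alox12e an epidermal lipoxygenase and Blnk a B cell linker protein. Cst6, Alox12e and Atp6v1c2 were also among the markers from which the infundibulum-like cluster was named.

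Among the 10 genes most like Skint7 were Foxn1 (r 0.91), Msx2 (0.88), Evpl (0.87), Krt16 (0.87), Wdr47 (0.86), Bcas2 (0.86), Grpel2 (0.86) and Cldnd1 (0.86). Foxn1, the transcription factor missing in nude mice, regulates keratinocyte differentiation, and Evpl encodes envoplakin of the cornified envelope. The r of these 8 genes in the Eppk1-/- library lay between 0.55 (Bcas2) and 0.84 (Grpel2), with 0.72 for Foxn1 and 0.65 for Msx2. None of the 10 genes nearest to Skint2 was among the 10 nearest to Skint7. Both lists were drawn from 12282 genes, and how often lists of this length share a gene was not tested. Of the other Skint genes, Skint1 (0.79 and 0.78) and Skint11 (0.77 and 0.83) were most like Skint7, and Skint3 (0.80 and 0.78), Skint8 (0.75 and 0.76) and Skint10 (0.66 and 0.70) were most like Skint2 in the wildtype, each given as r of the wildtype, then of the Eppk1-/- library.

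Read against the family, Skint7 was the only one of the 11 genes with its highest level among the epithelial groups in spinous-like cells in both libraries. Skint1, Skint3, Skint4 and Skint8 peaked like Skint2 in infundibulum-like cells in both libraries, with 551, 358, 194 and 49.4 CPM in the wildtype, and Skint5, Skint6, Skint9, Skint10 and Skint11 peaked in granular-like cells, with 263, 104, 328, 377 and 181 CPM.

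Of the close relatives, Skint8 did not have the pattern of Skint7, whereas Skint3 shared with Skint2 the order infundibulum-like, granular-like, isthmus-like, spinous-like and basal-like in both libraries. Skint8, which shares most sequence with Skint7, was read in spinous-like cells at 7.18 and 10.7 CPM, against 49.4 and 73.6 CPM in infundibulum-like cells, the reverse of the order in Skint7. Skint3, which shares most with Skint2, was read at 295 and 347 CPM in granular-like and 171 and 162 CPM in isthmus-like cells, beside 358 and 384 CPM in infundibulum-like cells, a flatter profile than that of Skint2. What cross-hybridisation adds to either member was not tested.

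**Figure D4:**
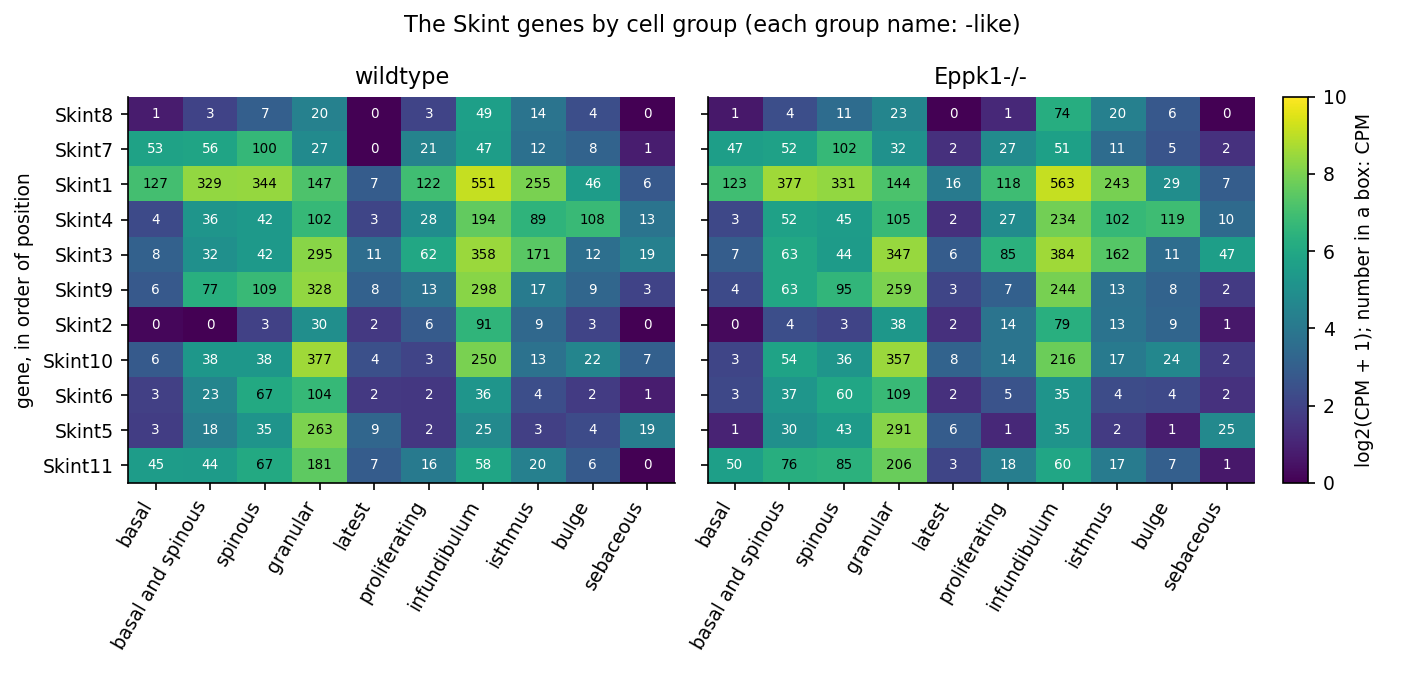
Level of the 11 Skint genes (rows, in order of position on chromosome 4) in 10 epithelial groups (columns) in the wildtype (left) and Eppk1-/- (right) library; colour gives log2(CPM + 1) and the number in each box the CPM. Skint7 is highest in the spinous-like column, Skint2 in the infundibulum-like column, and the 9 other genes in the infundibulum-like or granular-like column.

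By genotype, the 9 other Skint genes all had at least 50 UMIs in keratinocytes, and 0 were higher and 1 lower by the size rule, with a median log2 ratio of -0.11, against 3.62% higher, 3.56% lower and a median of 0.01 over all genes. The gene that was lower was Skint9, with 161 CPM (156 to 166) in the wildtype and 112 CPM (107 to 117) in the Eppk1-/- library. By stage its log2 ratio was -0.34 (-0.43 to -0.25) in granular-like and -0.20 (-0.37 to -0.03) in spinous-like cells. It was -0.30 (-1.01 to 0.39) in mixed basal and spinous cells and, from 42 and 19 UMIs, -0.70 (-1.57 to 0.11) in basal-like cells. Granular-like cells, where Skint9 peaked, were 5.16% and 3.13% of the cells, and the part of make-up was not tested. Of these 9, Skint8 alone passed the rule in infundibulum-like cells, at a log2 ratio of 0.58 (0.26 to 0.89), and in spinous-like cells, at 0.57 (-0.03 to 1.19), against 3.94% and 3.58% of all genes higher. Its log2 ratio in isthmus-like cells was 0.54 (-0.04 to 1.12). In basal-like cells Skint9 and Skint10, the latter at -0.90 (-1.80 to -0.06), were lower by the rule, against 3.68% of all genes. In mixed basal and spinous cells Skint3 at 0.98 (0.12 to 1.86), Skint10 at 0.51 (-0.35 to 1.37) and Skint11 at 0.79 (0.03 to 1.55) were higher, against 9.63%.

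Genes through which keratinocytes and epidermal T cells meet were read from lists fixed with earlier results known. Among 13 keratinocyte signals in the files were Cxadr, the ligand of Jaml, a receptor on T cells, and H60c, a ligand of Klrk1. Of the 13, 10 had 50 UMIs in keratinocytes, and 0 were higher and 1 lower, against 3.62% higher and 3.56% lower of all genes. The median log2 ratio of the 10 was 0.08. The lower gene was Il15, a cytokine that maintains these T cells, with 113 and 40 UMIs or 4.42 and 2.21 CPM. In spinous-like cells, where Skint7 peaked, H60c was read at 17.3 and 29.6 CPM and the cytokine Tslp at 226 and 124 CPM, and they were the 1 higher and 1 lower of 6 genes, against 3.58% and 3.57% of all genes. In infundibulum-like cells, where Skint2 peaked, 0 of 8 were higher and 2 lower, Tslp and Tnfsf18, from 44 and 14 and from 37 and 13 UMIs, against 5.02% of all genes lower. Of 11 butyrophilin and related genes, 1 had 50 UMIs in keratinocytes, Vtcn1, which belongs to the B7 family and is not itself a butyrophilin. It had 23 and 28 UMIs and a log2 ratio of 0.78 (-0.07 to 1.64), and it counted as higher, as did 3.62% of all genes there.

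The T cells themselves were present in both libraries as a cluster led by Trdc and Tcrg-V5, with 113 and 75 cells. Trdc was read there at 6912 and 7143 CPM, and in keratinocytes at 3.01 and 1.66 CPM. Of 18 epidermal T cell genes in the files, 12 had 50 UMIs in these cells, and 0 were higher and 1 lower, Tcrg-C1 at 753 and 483 CPM, against 10.5% of 1755 genes in each direction. In keratinocytes 7 had 50 UMIs, and 0 were higher and 2 lower, Trdc and Cd3e, from 77 and 30 and from 38 and 12 UMIs, against 3.62% of all genes higher and 3.56% lower. The T cell cluster held 1 and 0 UMIs of Skint2 and 4 and 1 of Skint7.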

How the data were processed

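Whole dorsal skin was profiled by the authors with a fixed-RNA probe assay, and per the file headers and the submitters' notes UMIs were counted with Cell Ranger 8.0.1 on mm10 (GRCm38). The deposited values are raw counts, not normalized, 1 matrix per genotype, and 0 other columns were left unused. The cell filter required 200 to 45000 UMIs, between 100 and 7500 detected genes and no more than 10% of UMIs from mitochondrial genes, and the remaining cells were clustered in R 4.3.3 with Seurat 5.3.0 (2000 variable features without Skint genes, 50 principal components, resolution 0.5). Groups were named from marker lists, with name thresholds set after clusters were seen. UMIs were summed per group and library and given as CPM with Python 3.11.15, numpy 2.4.6, scipy 1.17.1 and pandas 2.3.3. Levels and ratios carry exact Poisson or conditional intervals and shares Clopper-Pearson intervals, all at 95%. Ratios were read by size among genes with at least 50 UMIs, and with 1 library per genotype no p was computed. Scrublet (scanpy 1.11.5) marked 1 wildtype cell, so the top 5% by score, 464 cells, were left out there and 203 in the Eppk1-/- library, as an alternative only. Named genes were the members, listed genes with at least 50 UMIs, and the 10 genes most correlated with each member among those with at least 200 UMIs, of which 2 are not reported here. The lists were the Skint family, butyrophilins and related genes, epidermal T cell genes and keratinocyte signals. Members and lists were chosen with earlier results of these data known, and the Krt79 and Tchh splits and the infundibulum-like over granular-like alternatives after values were seen. Gene models are from GENCODE M21 and promoters from RefSeq (GRCm38.p6). Scripts were tested on simulated data. The study's human and imiquimod data were not analysed here.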

Additional observations from a re-analysis of the deposited data

How the results depend on the processing

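No paired analysis was possible because each genotype has 1 library and the results come from no test, and for the same reason no replicate could be left out. Of 120 values under alternatives, 97 stayed within a set range around the reported value. That range was the counting interval for ratios and odds ratios, a fixed width for correlations and a fixed factor for counts of genes. The correlation over cell groups and the odds ratio of shared detection took the other sign in 6 of the others. The Skint2 genotype log2 ratio of 0.06, whose interval spans 0, was -0.18 with every cell weighing the same, -0.016 with thinned cells, -0.054 with follicle and sebaceous cells included and -0.024 at resolution 1. The log2 odds ratio of shared detection in keratinocytes was 0.74 (wildtype) and 0.90 (Eppk1-/-) without thinning, 0.78 and 1.27 with at least 2 UMIs of each gene, and 0.034 (Eppk1-/-) with no cell filter. The correlation of Skint2 with Skint7 was -0.18 and 0.018 over keratinocyte sub-clusters only and 0.52 and 0.44 with doublets left out. With sub-clusters weighted by wildtype shares the genotype log2 ratio was 0.36 for Skint2 and 0.028 for Skint7, and 0.034 for Skint7 with every cell weighing the same. The spinous-like over basal-like log2 ratio of Skint7 was 0.13 and 0.44 with stages set from keratin UMIs and, in the wildtype, 1.19 with thinned cells and 0.58 at resolution 1. Genes higher in Eppk1-/- keratinocytes numbered 234 with thinned cells and 7 among genes found in 25% of keratinocytes, and genes lower 638 with every cell weighing the same, 579 with follicle and sebaceous cells included and 16 among genes found in 25% of keratinocytes. The Skint2 log2 ratio of infundibulum-like over granular-like cells, whose alternatives were chosen after seeing the data, lay between 1.53 and 2.06 in the wildtype and between 0.95 and 1.75 in the Eppk1-/- library. The causes were not tested. The TMM factors of edgeR 4.0.16 were 0.99 and 1.01. Skint2 rests on few UMIs outside granular-like and infundibulum-like cells.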
